A study of Mus musculus with 7 samples.

Results

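The Prdm genes encode zinc finger proteins that carry a PR domain, and 7 of them (Prdm1, Prdm6, Prdm8, Prdm12, Prdm13, Prdm14 and Prdm16) were examined among 21631 protein-coding genes for the repressive histone mark H3K27me3. Members were given by name, in a list made with these peak lists already known, so that all 7 have peaks is a description of the choice. Their peaks were those that overlapped the gene body extended by 10 kb on each side by at least 1 bp. Chromatin immunoprecipitation of the mark was sequenced from epidermal progenitors of newborn mice (postnatal day 0), sorted from back skin as EpCAM+, Sca1+ and α6-integrin high cells. The groups were control cells and Ring1a/b 2KO cells (2KO), which lack both Ring1a and Ring1b, with 2 immunoprecipitation libraries and 1 deposited list of called peaks for each genotype. The titles of the 2KO libraries say H3K27me1, but their antibody label and the list say H3K27me3. The sources used here do not give the driver of the deletion or the alleles of the control mice, and the 1 control input library and the Eed cKO libraries were not analysed here. With 1 list per genotype there was no spread between replicates and no test of any difference, and intervals (95% Wilson) cover counting error only. Sequencing depth is unknown, so a stretch without a peak is a stretch that was not called, and the lists do not check the genotype.

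Polycomb repressive complex 2 places H3K27me3 on silent developmental genes, and complex 1, whose ubiquitin ligase subunits are Ring1a and Ring1b, acts at many of the same genes. Most Prdm proteins regulate transcription in a cell lineage, either through their own enzyme activity or through partner proteins. In skin, Prdm1 (Blimp1) is known for its part in terminal differentiation of the epidermis, whereas the other 6 genes are known mainly from neurons, germ cells, smooth muscle, fat and stem cells.

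All 7 genes had a control peak and all 7 had a 2KO peak in the window, but the called length that was kept ran from 21.7% at Prdm1 to the whole domain at Prdm13. Prdm13, Prdm8 and Prdm12 kept 100, 94.6 and 79.3% of their control bases under 2KO peaks. Prdm6, Prdm14 and Prdm16 kept 43.7, 39.0 and 37.2%. Prdm1 kept 21.7%, the smallest share in this window. This order rests on its second, distant control peak: at the peaks within 1 kb of the start, Prdm1 kept 44.0% and Prdm16 41.7%. Over all protein-coding genes in the same window, 14.9% had a control peak (14.4 to 15.4), 11.2% a 2KO peak (10.8 to 11.6) and 8.9% both (8.53 to 9.29). No member had a control peak only, beside 5.98% of all genes. Of the 3219 genes with a control peak, 59.8% (58.1 to 61.5) also had a 2KO peak. In sum the 7 genes lay under 161.7 kb of control peaks, of which 101.0 kb (62.4%) were also under 2KO peaks, beside 47.5% of the bases of the whole control list, and 2KO peaks added 6.70 kb outside the control peaks. The median share kept was 43.7% over the 7 genes and 54.5% over all genes with a control peak (quartiles 0 and 98.2%). By share kept, the members lay above 42.3 to 78.7% of all genes with a control peak, and none was at 0. Over the 478 genes with at least 15 kb under control peaks, a length that 6 of the 7 members have, the median kept was 66.0%.

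**Figure D1:**
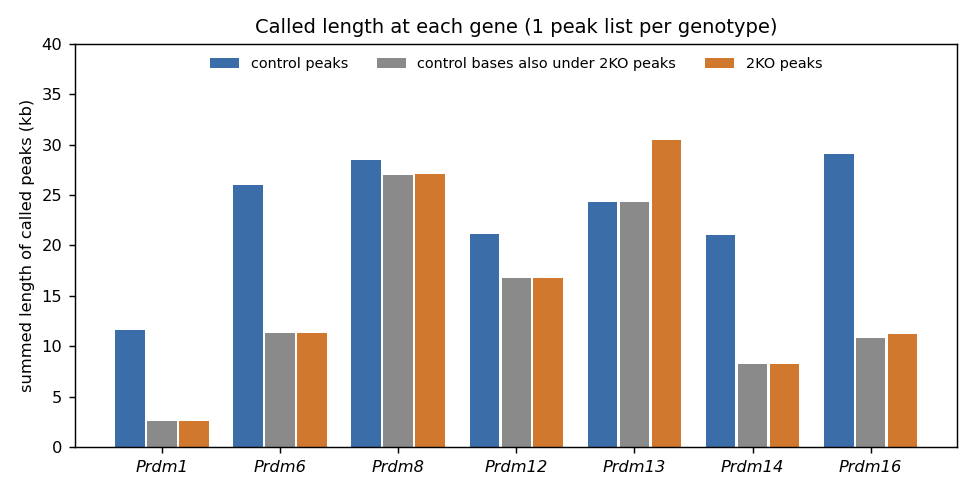
Summed length of called peaks (kb, vertical axis) at each of the 7 genes, with control peaks in blue, the control bases also under 2KO peaks in grey and 2KO peaks in orange; whole peaks were summed and there is 1 list per genotype. Prdm13 has the only 2KO bar above its control bar (30.5 against 24.3 kb), and Prdm1 has the lowest bars of each kind.

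The positions of the gene starts were examined next. The RefSeq promoter table (GRCm38.p6, the same build as mm10) held 300 bases around the start of 5 members, Prdm1, Prdm8, Prdm12, Prdm13 and Prdm16, and not Prdm6 and Prdm14. It held 1 start for each of the 5. At Prdm1, Prdm8, Prdm12 and Prdm16 the annotated gene reaches further upstream than that start, and any other start was not examined. All 5 starts lay under a control peak; the share over the 17274 protein-coding genes in that table was 7.87%, from which nothing is read for genes picked with the lists known. Under a 2KO peak lay the starts of Prdm8, Prdm12 and Prdm13, but not those of Prdm1 and Prdm16, against 4.65% of all genes in the table. Of all genes with a start under a control peak, 51.9% (49.3 to 54.6) also had it under a 2KO peak. The promoters of Prdm1 and Prdm16, where the start was no longer under a peak, are shown beside that of Prdm13, where the peak became wider. Each runs 5′ to 3′ along the gene from 250 bases before the start to 50 after it, and capitals mark CpG dinucleotides. They lie at chr10:44458699-44458998, chr4:154636824-154637123 and chr4:21685914-21686213, all on the minus strand.
Prdm1: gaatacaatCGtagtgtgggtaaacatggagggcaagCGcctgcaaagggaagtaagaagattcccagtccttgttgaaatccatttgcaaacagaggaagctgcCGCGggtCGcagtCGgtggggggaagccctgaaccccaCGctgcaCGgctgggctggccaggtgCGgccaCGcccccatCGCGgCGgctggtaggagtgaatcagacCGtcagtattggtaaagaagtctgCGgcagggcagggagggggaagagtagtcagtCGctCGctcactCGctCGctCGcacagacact
Prdm16: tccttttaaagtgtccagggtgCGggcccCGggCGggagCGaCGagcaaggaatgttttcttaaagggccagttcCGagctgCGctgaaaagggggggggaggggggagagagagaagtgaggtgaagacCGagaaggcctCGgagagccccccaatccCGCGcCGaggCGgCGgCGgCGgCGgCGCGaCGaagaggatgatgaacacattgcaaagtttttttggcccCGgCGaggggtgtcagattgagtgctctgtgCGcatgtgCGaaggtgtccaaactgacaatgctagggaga
Prdm13: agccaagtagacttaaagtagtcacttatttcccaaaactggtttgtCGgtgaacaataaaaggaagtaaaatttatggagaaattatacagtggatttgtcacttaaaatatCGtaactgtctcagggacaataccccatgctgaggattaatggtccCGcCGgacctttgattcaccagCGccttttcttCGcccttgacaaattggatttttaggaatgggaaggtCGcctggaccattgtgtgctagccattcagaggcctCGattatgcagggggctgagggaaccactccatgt
The Prdm16 promoter held 24 CpG and that of Prdm1 20, at an observed to expected ratio of 0.94 and 0.77. The Prdm12 promoter held 17 CpG (ratio 0.72), that of Prdm8 12 (0.49) and that of Prdm13 8 (0.55). The pair whose start was under a control peak only thus had higher ratios than the 3 whose start was under both. Over all promoters with a start under a control peak, the median ratio was 0.72 for the 767 under a control peak only and 0.62 for the 810 under both, beside 0.57 for all 21045 promoters. By G and C content, Prdm13 stood low (44.3%, above 15.3% of promoters) and Prdm12 highest of the 5 (63.7%, above 71.7%). A pair of short motifs were counted on both strands: an E-box (CANNTG), the kind of site that basic helix-loop-helix factors bind, and GAAAG, a core of the sites described for Prdm1. E-boxes were found in the promoters of Prdm8 (3), Prdm1 (2) and Prdm16 (1) and GAAAG in that of Prdm12 (1). Of all promoters of this length 69.0% held an E-box and 55.1% held GAAAG, so such matches are common.

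**Figure D2:**
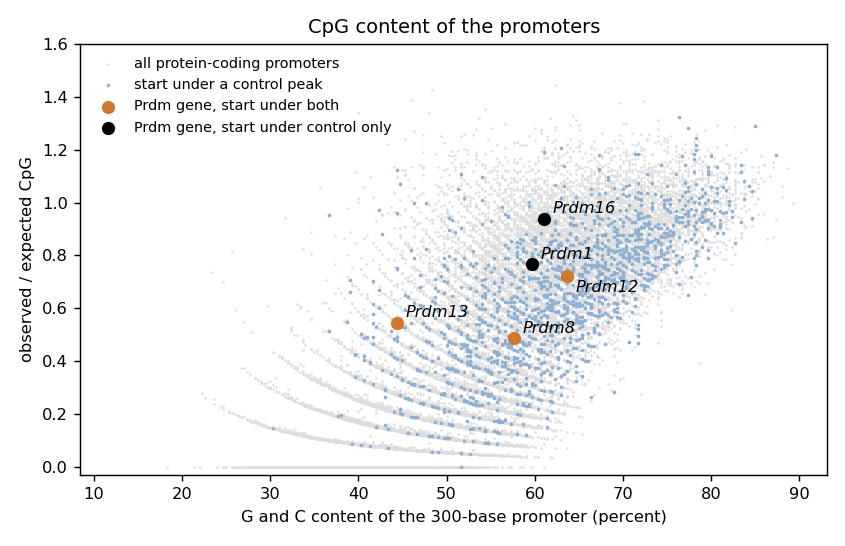
Observed to expected CpG (vertical axis) against G and C content in percent (horizontal axis) of 300-base promoters, with all protein-coding promoters in grey, those with a start under a control peak in blue, and 5 Prdm genes as large points, orange where the start lay under peaks of both lists and black where it lay under a control peak only; 1 of 21045 promoters lay above the axis limit of 1.6. Prdm16 (0.94) and Prdm1 (0.77) lie above Prdm12 (0.72), Prdm13 (0.55) and Prdm8 (0.49).

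Prdm1 encodes a transcriptional repressor that promotes the terminal differentiation of plasma cells and of the epidermis. It lies on chromosome 10 (44437174 to 44528558, minus strand, 91.4 kb). Of the 7 genes it had the smallest control length, 11.6 kb in 2 narrow peaks. The first control peak (44453707 to 44459442, 5.74 kb) reached from 694 bp before the start shown above to 5041 bp after it. The other (44523368 to 44529268, 5.90 kb) lay over the far upstream end of the annotated gene, 64.6 to 70.5 kb before that start, and met no 2KO peak. Both were near the middle of the control list in width, wider than 60.8 and 62.4% of its peaks. The single 2KO peak (44455828 to 44458350) measured 2.52 kb, wider than 10.1% of the 2KO list, and lay wholly inside the first control peak. It began 398 bp after the start, so the start itself and the whole 300-base promoter were not under it. Prdm1 therefore keeps a called core inside the gene, and the control peak at its far upstream end was not called in the 2KO list. The other end of the gene had no peak in either list. With peaks under 3 kb left out of both lists, Prdm1 had no 2KO peak.

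Prdm16, a factor of brown fat, blood and neural stem cells, and a relative of Mecom, lies on chromosome 4 (154316122 to 154637360, minus strand, 321.2 kb). Its 4 control peaks summed to 29.0 kb, of which 25.8 kb lay inside the window, less than at Prdm8 (28.5 kb) and Prdm6 (26.0 kb). The main one (154628876 to 154647073, 18.2 kb) covered the start and reached 7997 bp into the gene and 10200 bp upstream of it. Control peaks of 4.13 and 3.50 kb lay deep in the gene, 161.7 to 216.2 kb after the start, and met no 2KO peak. The 2KO peak at the main domain (154638511 to 154646091, 7.58 kb) ended 1638 bp before the start. No base of the gene body was under a 2KO peak, compared with 16.1 kb under control peaks. The other 6 members had a 2KO peak over the gene body, beside 55.8% (53.8 to 57.7) of genes with a control peak over it. Such a pattern, a control peak over the gene body and 2KO peaks only beside it, was seen in 7.98% (6.7 to 9.47) of 1467 genes with a control peak over the body and a 2KO peak in the window. This 2KO peak at the main domain overlapped the noncoding gene Prdm16os. The fourth control peak (154647348 to 154650561, 3.21 kb) was only just inside the window, 9987 bp from the gene with 13 bp in reach, and its 2KO counterpart (3.60 kb) covered all of it. Without this pair, as with a window of 5 kb, Prdm16 kept 29.4% of 25.8 kb, and with a window of 0 or 1 kb it had no 2KO peak.

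Mecom (Prdm3), named with the other family genes, showed a similar arrangement at the start used here on chromosome 3 (gene 29951296 to 30509759, minus strand). This was the start of highest coordinate in the promoter table, and any other was not examined. Its 24.6 kb control peak reached 12311 bp upstream and 12249 bp into the gene. The 2KO peak there (30509849 to 30517440, 7.59 kb) ended 90 bp before the start, and none lay over the gene body. Control peaks of 10.6 and 3.66 kb inside the gene met no 2KO peak, and Mecom kept 19.6% of its 38.8 kb. At both genes the called 2KO stretch was upstream of the start and the control stretch inside the gene was not called.

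**Figure D3:**
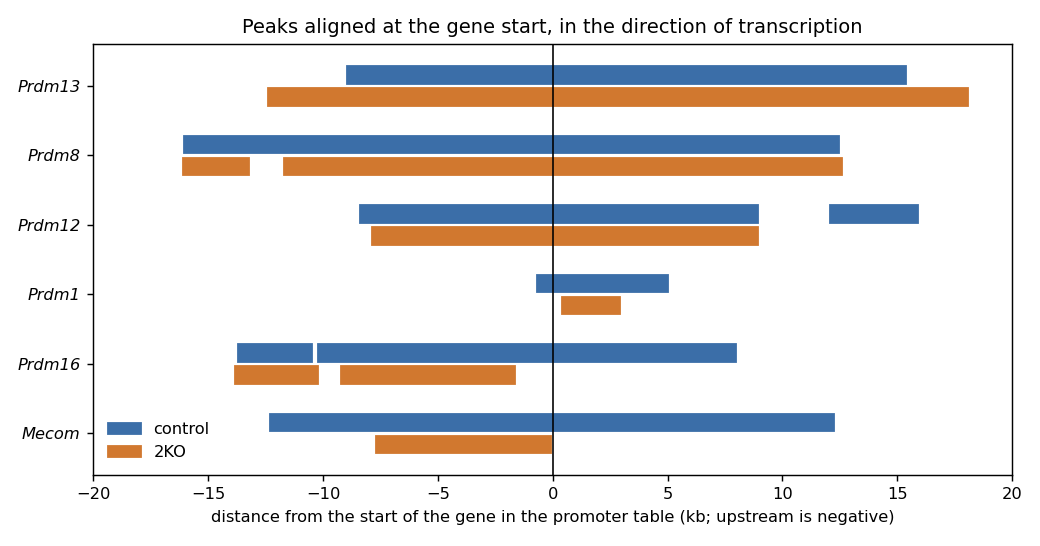
Control (blue) and 2KO (orange) peaks of 5 Prdm genes and Mecom, drawn in kb from the start of each gene in the promoter table (vertical line at 0, upstream negative, direction of transcription to the right). For Mecom the start of highest coordinate was used, and peaks beyond 20 kb are not drawn. The start of Prdm13, Prdm8 and Prdm12 is under both, that of Prdm1 lies 398 bp outside its 2KO peak, and the 2KO peaks of Prdm16 and Mecom end 1638 and 90 bp upstream.

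Prdm13, a factor of dorsal spinal cord and retinal interneurons that acts downstream of Ptf1a, lies on chromosome 4 (21675865 to 21685963, minus strand, 10.1 kb). It lay wholly under 1 peak in each list. The control peak (21670581 to 21694925) measured 24.3 kb, and the 2KO peak (21667877 to 21698349) measured 30.5 kb and covered all of it. The lower edge lay 2704 bp and the upper edge 3424 bp further out in the 2KO list. This 2KO peak ranked 19 of 2340 by width, and the control peak 122 of 3631. No other member had a longer called length in 2KO than in control cells.

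Prdm8, which acts with Bhlhe22 in the wiring of neurons, lies on chromosome 5 (98167203 to 98187454, plus strand, 20.3 kb). One control peak of 28.5 kb (98164823 to 98193338) covered the whole gene, and its edges were called within 37 and 129 bp of the same places in the 2KO list. Inside it the 2KO list had a gap of 1548 bp (98167641 to 98169188), near the lower end of the gene upstream of the start in the promoter table. The 2KO peaks on each side measured 2.86 and 24.3 kb. The gap was the only control stretch of Prdm8 that was not called in the 2KO list.

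Prdm12, which is required for pain-sensing neurons, lies on chromosome 2 (31635026 to 31655795, plus strand, 20.8 kb). Its main domain was nearly the same in both lists, 17.3 kb in control (31631632 to 31648973) and 16.8 kb in 2KO cells (31632185 to 31648991), with the upper edges 18 bp apart. A second control peak of 3.83 kb at the end of the gene (31652110 to 31655934) had no 2KO counterpart. It accounted for 3.83 of the 4.38 kb not called in the 2KO list, and the main domain kept 96.8%.

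Prdm6, known from smooth muscle, lies on chromosome 18 (53463955 to 53575904, 112.0 kb). A control peak of 26.0 kb (53456660 to 53482660) lay across the lower end of the gene. The 2KO list had 2 peaks inside it, of 3.25 kb (53460094 to 53463341) and 8.10 kb (53465103 to 53473205). The 1761 bp between them held the lower end of the gene at 53463955. The outer edges of the 2KO peaks lay 3434 and 9455 bp inside those of the control peak. Both flanks and the stretch between the 2 peaks were thus not called.

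Prdm14, a factor of primordial germ cells and pluripotency, lies on chromosome 1 (13113428 to 13127163, 13.7 kb). Its control domain of 15.3 kb (13118285 to 13133614) lay across the upper end of the gene. The 2KO peak (13121609 to 13129814, 8.21 kb) was centred in it, with edges 3324 and 3800 bp further in. A control peak of 5.70 kb (13100129 to 13105826), 7601 bp below the gene, met no 2KO peak. Without it, as with a window of 5 kb, Prdm14 kept 53.5%.

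**Figure D4:**
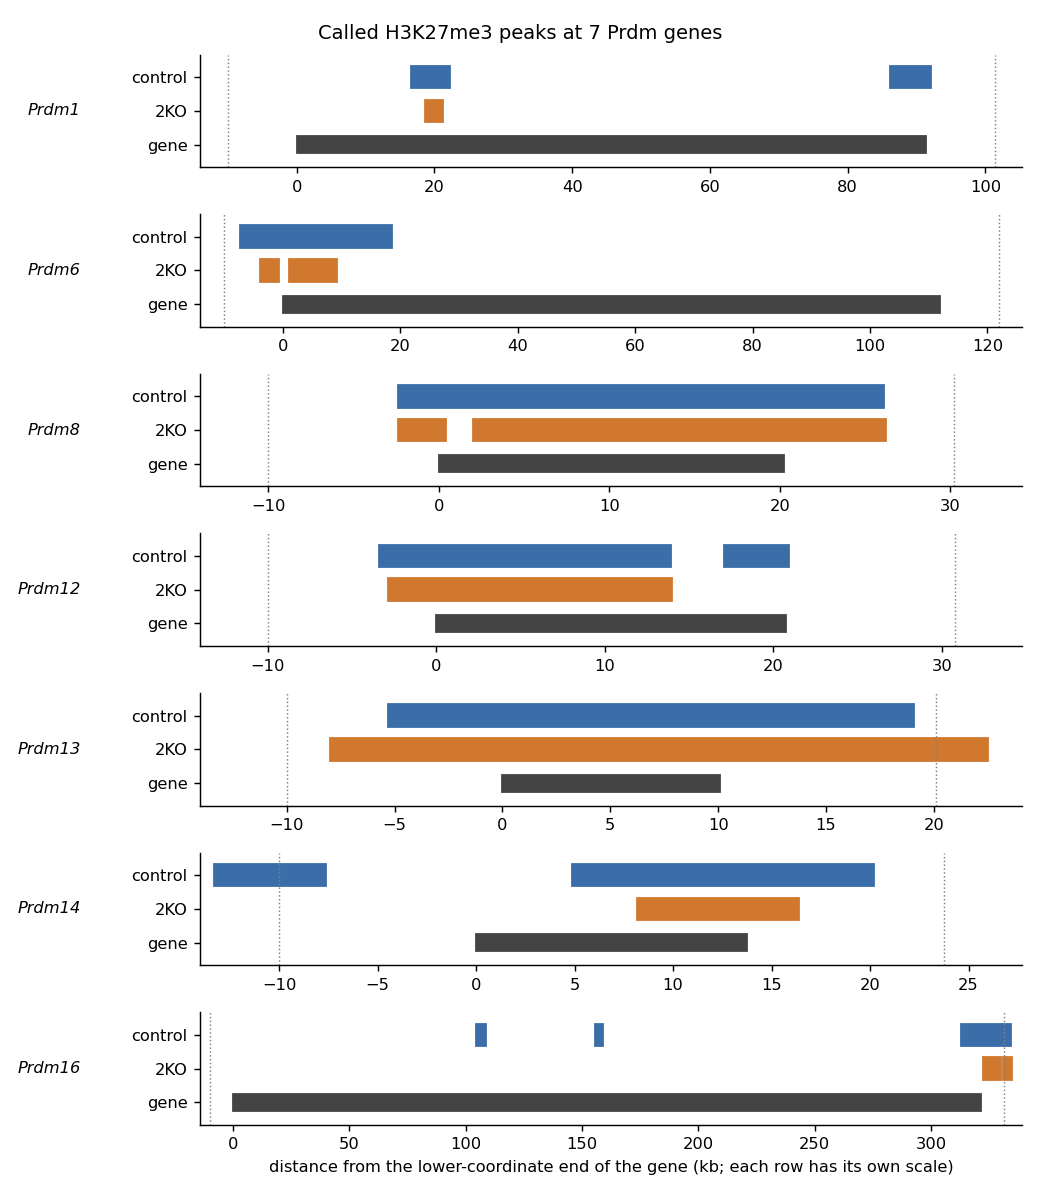
Called peaks of control (blue) and 2KO cells (orange) at each of the 7 genes (dark bar, gene body), in kb from the lower-coordinate end of the gene with a separate scale per row; dotted lines mark the window 10 kb beyond the gene. The 2KO peaks of Prdm1, Prdm6 and Prdm14 sit inside their control peaks, those of Prdm8 and Prdm12 end within 553 bp of the edges of the main control peak, that of Prdm13 passes both edges, and those of Prdm16 lie beyond the gene.

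Across the 7 genes there were 13 control and 10 2KO peaks. All 10 2KO peaks met a control peak, so none lay wholly outside the control peaks. The share of the whole 2KO list that meets a control peak is not given here, so nothing is read from this count. Of the 13 control peaks 8 (61.5%) met a 2KO peak, beside 47.4% of all 3631 control peaks. The 6 control peaks of 15 kb or more, 1 at each gene other than Prdm1, all met one, beside 76.6% of such peaks in the whole list. Of the 7 narrower control peaks 2 met one, beside 44.7% of the list, and these were the start of Prdm1 and the outer peak of Prdm16. The 5 that met none measured 3.50 to 5.90 kb. The limit of 15 kb was set after these values were seen. Of the 8 met control peaks, 4 held their 2KO peaks inside both edges (Prdm1, Prdm6, Prdm14 and the main peak of Prdm16), beside 23.5% of all 1721 met control peaks. Of the 8, 3 were reached or passed on both edges (Prdm8, Prdm13 and the outer peak of Prdm16), beside 42.8%. A control peak was met by more than 1 2KO peak at Prdm6 and Prdm8, beside 5.4% of met control peaks.

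**Figure D5:**
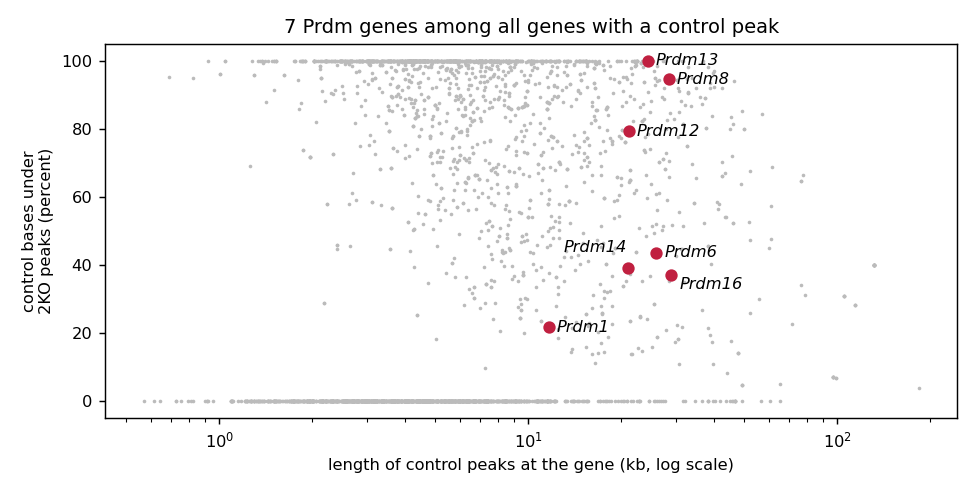
Share of control bases under 2KO peaks (percent, vertical axis) against the length of control peaks at the gene (kb, log scale, horizontal axis) for the 3219 protein-coding genes with a control peak (grey), with the 7 Prdm genes in red. Prdm13, Prdm8 and Prdm12 lie at 79.3% or more, and Prdm6, Prdm14, Prdm16 and Prdm1 at 43.7% or less.

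The peaks were also set beside the neighbouring protein-coding genes. None of the 23 peaks overlapped another protein-coding gene. The share over all peaks is not given here, and overlap alone does not assign a peak to a gene. Of the 14 protein-coding genes that flank the members, 11 had no peak of either list in their own windows, among them Atg5 beside Prdm1 and Exosc2, 14.9 kb from Prdm12. Over all protein-coding genes 14.9% had a control peak and 11.2% a 2KO peak in such a window. Most genes thus have none, and nothing is read from the count of flanking genes. The 3 that had one, named after their values were seen, were Fgf5 (22.9 kb of control and 11.6 kb of 2KO peaks) beside Prdm8, Ncoa2 beside Prdm14, and Slco5a1 on the other side of Prdm14 (6.93 kb, control only). The window of Ncoa2 shares the domain of Prdm14.

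Of 9 other Prdm family genes, Mecom had peaks and the other 8 had none in either list within 10 kb, among them Prdm2, Prdm4, Prdm10 and Prdm9, the factor that places meiotic recombination sites. That share is near those of all protein-coding genes, 14.9% with a control peak and 11.2% with a 2KO peak. The 7 genes were listed for study with the peak lists known, so this contrast with the rest of the family is a description of how the members were picked.

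Prdm1 was next set beside other genes of epidermal differentiation. Of 14 regulators, Prdm1 and Gata3 had a control peak, a share near the 14.9% of all protein-coding genes, and the other 12, such as Klf4, Grhl3, Ovol1 and Zfp750, had none in either list. The peak of Gata3 (8.81 kb) lay outside the gene and had no 2KO peak in its window. Of 14 structural genes only Tchh, which encodes trichohyalin, had a control peak (3.44 kb) and none had a 2KO peak. Prdm1 was the only one of these 28 genes with a 2KO peak, beside 11.2% of all protein-coding genes, and that peak measured 2.52 kb.

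Genes known to act with or upstream of the members were counted in the same way. Of 23 such genes 11 had a control peak and the same 11 had a 2KO peak. Over all protein-coding genes 14.9% had a control peak, 11.2% a 2KO peak and 8.9% both. The 11 kept a median of 92.3% of control bases, beside 54.5% over all genes with a control peak. Over genes with at least 15 kb under control peaks the median was 66.0%. Ptf1a, upstream of Prdm13, had peaks of 22.6 and 35.1 kb in control and 2KO cells and, like Prdm13, a wider one in the 2KO list. Bhlhe22, the partner of Prdm8, had 12.4 and 13.4 kb and kept 89.4%. Neurog1 and Neurog2, proneural factors, kept 74.1 and 95.5%, and Olig2 kept 86.9%. Pparg and Ppargc1a, which act in fat with Prdm16, kept 79.1 and 92.3% of 5.98 and 11.6 kb. Pax5 and Irf4, of the B cell pathway in which Prdm1 acts, kept 94.9 and 84.1% of 33.9 and 6.11 kb. Most of these genes encode developmental transcription factors, and the list was made with earlier results of these data known.

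By called length in the 2 lists inside the window, the genes most like each member were taken from all other protein-coding genes. For Prdm8 (28.5 and 27.1 kb) these were the homeobox genes Otp (27.9 and 27.8 kb) and Otx2 (27.7 and 27.8 kb). Hmx1 (26.2 and 27.3 kb) and Pax1 (26.1 and 26.9 kb) were nearest to Prdm13 (24.3 and 28.1 kb), and Asb18 (21.2 and 17.3 kb) and Dmrt2 (21.0 and 16.2 kb) to Prdm12 (21.2 and 16.8 kb). Those nearest to Prdm6 (26.0 and 11.4 kb) were Hoxd11 (27.5 and 11.5 kb) and Zic1 (27.7 and 11.8 kb). Prdm16 (25.8 and 7.84 kb) stood nearest to Hoxd12 (22.7 and 7.88 kb), and Prdm14 (17.7 and 8.21 kb) to Trim36 (17.4 and 8.12 kb) and Cacng8 (18.6 and 8.07 kb). Prdm1 (11.6 and 2.52 kb) was nearest to Dph1 (10.4 and 2.299 kb) and Alox12e (10.6 and 2.84 kb). Likeness here rests on 2 values per gene, cut at the window. The control lengths of Hoxd11 and Hoxd12 are parts of 1 control peak of 131.3 kb.

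Marker genes of the sorted cells and of other skin cells were counted too, but they do not settle the label. Of 8 basal keratinocyte genes 7 had no peak in either list, and Krt15 had a control peak of 3.61 kb beside the gene, a share near the 14.9% of all protein-coding genes. Control peaks were present at 6 of 7 Merkel cell, 2 of 6 melanocyte, 3 of 6 dermal fibroblast, 1 of 5 immune, 2 of 5 endothelial and 3 of 4 sensory neuron genes, of which the immune count is near that 14.9%. The Merkel cell genes Krt8 and Krt18 share 1 control peak of 49.4 kb, and Isl1 is in both the Merkel cell and sensory neuron lists. In the 2KO list 4, 1, 2, 2, 2 and 3 genes of these lists had a peak, beside 11.2%. Cd207, an immune gene, had a peak of 33.0 kb in the 2KO list only, of which 0.211 kb lay over the gene. The part that other cells in the sort have in the peaks of the Prdm genes was not tested.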

How the data were processed

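H3K27me3 peaks were analysed as 1 deposited list per genotype, which gives chromosome, start and end and no height, score or p-value. The submitters' processing notes name Bowtie2 2.3.3.1, SAMtools 1.9 and build mm10. How peaks were called, at which threshold, with or without input and on single or pooled libraries is not stated in the labels. A stricter call in either list would shorten its peaks. Positions are printed 1-based, with the starts in the lists taken as 0-based. Gene ends and promoters came from RefSeq tables of GRCm38.p6. Called lengths are of whole peaks in the window unless stated to be inside it. Protein sequences, planned as a further description, were not used here.

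The members and gene lists were chosen with earlier results of these data known. The genes named were the members, the family list, listed genes with a peak, protein-coding genes under the same peaks, and for each member the 2 genes nearest in log2(kb + 1) under control and 2KO peaks; some of these are not reported here. The overlap code, tested on simulated lists, returned the lengths and kept bases of all 200 genes. Alternatives were 5 other windows, a larger overlap, equal numbers of peaks, peaks of 3 kb or more, and merged peaks. Python 3.11.15, numpy 2.4.6, pandas 2.3.3, scipy 1.17.1 and matplotlib 3.10.9 were used.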

Additional observations from a re-analysis of the deposited data

How the results depend on the processing

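No paired analysis was possible because the deposited lists hold no values per library; leaving out a replicate was likewise not possible. A value was counted as moved when it changed by over 1.5 times. With the start site extended by 1 kb, which only 5 members have in the promoter table, 4 members had a 2KO peak and the same number had both, the members lay under 94.1 kb of control peaks, and 1566 protein-coding genes had a control peak, 990 a 2KO peak and 849 both. With the gene body alone, 1550 genes had a 2KO peak. These alternatives use smaller windows and, for the first, fewer genes. The share of control bases kept over all members ran from 59.1 to 83.1% across the 9 alternatives. Of 183 values for single members 175 moved by less than 1.5 times. Those that moved further were at Prdm1 and Prdm16: Prdm1 had 0 kb of 2KO peaks with peaks of 3 kb or more and kept 44.0% of 5.74 kb at the start site, and Prdm16 had 0 kb of 2KO peaks with the gene body alone, with 1 kb and at the start site, where its control peak measured 18.2 kb.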
